A study of Zygosaccharomyces parabailii with 12 samples.

Results

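The change of the transcriptome with growth phase was examined in lactic acid cultures of Zygosaccharomyces parabailii ATCC60483, by setting the 3 libraries of cultures sampled at 42 h against the 3 sampled at 18 h. These 6 libraries, of 12 in the series, were chosen by their labels: lactic acid at 40 g per liter was present at both times. Z. parabailii is a hybrid yeast that carries 2 parental gene sets, A and B, and the A and B versions of a gene are called homeologs. All cultures were batch fermentations of glucose in bioreactors, in Verduyn medium at pH 3. The study placed 42 h after the diauxic shift and 18 h in exponential growth. The 6 control libraries came from cultures without lactic acid at the same times and serve here only for comparison. Control replicate 2 at 18 h held 4606 counts, was left out by the study, and is left out of every value below. RNA was sequenced after removal of rRNA. The 3 samples of a group were drawn from a fermentation as triplicates. The p-values therefore measure the spread between such samples, which may be technical, and not that between independent cultures.

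When a fermenting yeast runs out of glucose it passes through the diauxic shift: growth slows, and the cell turns to ethanol, acetate, glycerol and its own stores as carbon sources. In Saccharomyces cerevisiae this switch is known for a fall of the genes that build ribosomes and a rise of genes of respiration, the glyoxylate cycle, fatty acid breakdown, glycogen and trehalose, and stress defense. Gene names below are those of the S. cerevisiae homologs, the stated roles are those known in that yeast, and a name with a slash marks a homolog of a duplicated S. cerevisiae pair.

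Of 10085 genes counted, 9683 passed the filter of 1 CPM (the count as a share of the library total, with the libraries scaled to each other) in 3 libraries of a condition. The words upregulated and downregulated are kept for genes with an adjusted p below 0.05 whose log2 fold change was 1 or more in size, and the words higher and lower need only the adjusted p below 0.05. Between 42 h and 18 h in lactic acid 2412 genes (24.9%) were upregulated and 2355 (24.3%) downregulated, while 4005 (41.4%) were higher and 4056 (41.9%) lower. The 3 libraries at 42 h lay above all 3 at 18 h for 4000 genes (41.3%) and below them for 4064 (42%). The median absolute log2 fold change over all genes was 0.98, and the median signed change was -0.003. Increases reached further than decreases: 485 genes rose by a log2 of at least 3 and 197 fell by as much, 118 rose by at least 5 and none fell by 5. Scaling by library totals alone, without the TMM factors used here, moved the median of all genes to -0.31 and the counts to 1844 upregulated and 3037 downregulated genes. CPM are shares of a library, so a lower value may mean fewer transcripts per cell, fewer cells with the transcript, or more of other transcripts. These cannot be told apart in any value below.

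The 6 libraries held 11205049 to 14403304 counts in genes. The LA42 libraries were less alike than the LA18 libraries: the median distance of a gene from the other 2 replicates was 0.247, 0.104 and 0.246 on the log2 scale for LA42 replicates 1, 2 and 3, and 0.107, 0.0999 and 0.146 for the LA18 replicates. Replicate 1 was the highest of the 3 LA42 libraries in 1553 of the 2412 upregulated genes and the lowest in 1670 of the 2355 downregulated ones. Without this library 2195 genes were upregulated and 2304 downregulated. Below, the name of a library is given beside genes whose printed fold change moved by more than 1.5 times when that library was left out. This check covered the 174 genes named by the rule given with the processing. For other genes a missing library name does not mean a passed check. The labels mark the cells as one yeast strain, so no marker of another cell type applies, and the 13 genes of the mitochondrial genome took 3.31%, 4.66% and 3.73% of the counts at 42 h, against 2.78%, 2.81% and 2.76% at 18 h. The exact permutation test of that difference gave p = 0.1, two-sided, which is the smallest value that 3 against 3 libraries allow.

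The largest increase among genes that reached 10 CPM was that of IGD1 (A09670_B), an inhibitor of the glycogen debranching enzyme. It had 1840.4, 1198 and 1112 CPM at 42 h, against 1.46, 1.44 and 2.02 CPM at 18 h, a log2 fold change of 9.72 ± 0.28 (SE, adjusted p = 2.00e-10), which is 844-fold. Its A homeolog B09630_A had 1602, 1199 and 1281 CPM at 42 h, against 3.78, 3.71 and 5.05 CPM at 18 h (8.35 log2). Each of the 42 h libraries lay far above each of the 18 h libraries for both copies.

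Glycerol genes made up 4 of the 12 largest increases. STL1, the glycerol and proton symporter of the plasma membrane, had 12048, 10306 and 8000.5 CPM at 42 h, against 21.02, 17.6 and 9.24 CPM at 18 h for the B copy K00540_B (9.31 ± 0.36 log2, adjusted p = 1.03e-09). Its A copy C00630_A rose by 8.73 on the log2 scale. GUT1, glycerol kinase, had 13927, 6501 and 3312 CPM at 42 h, against 9.48, 12.4 and 13.3 CPM at 18 h for G04130_B (9.40 ± 0.56 log2, adjusted p = 1.42e-08), and 8533, 3307 and 1599 CPM at 42 h, against 9.22, 9.54 and 10.9 CPM at 18 h for B02500_A. The groups did not overlap for any of the 4 genes, but replicate 1 stood well above the other libraries at 42 h for GUT1. Leaving out LA42 replicate 1 took the log2 fold change of GUT1 to 8.69 for G04130_B and to 7.94 for B02500_A. Both STL1 genes and both GUT1 genes rose in the control cultures too, by a log2 of 8.69 and 7.85 for STL1 and of 6.83 and 7.06 for GUT1. Of these, the excess in lactic acid was 2.57 log2 units for GUT1 G04130_B (adjusted p = 0.00393), while that of STL1 K00540_B did not pass the test (0.62, adjusted p = 0.219).

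**Figure D1:**
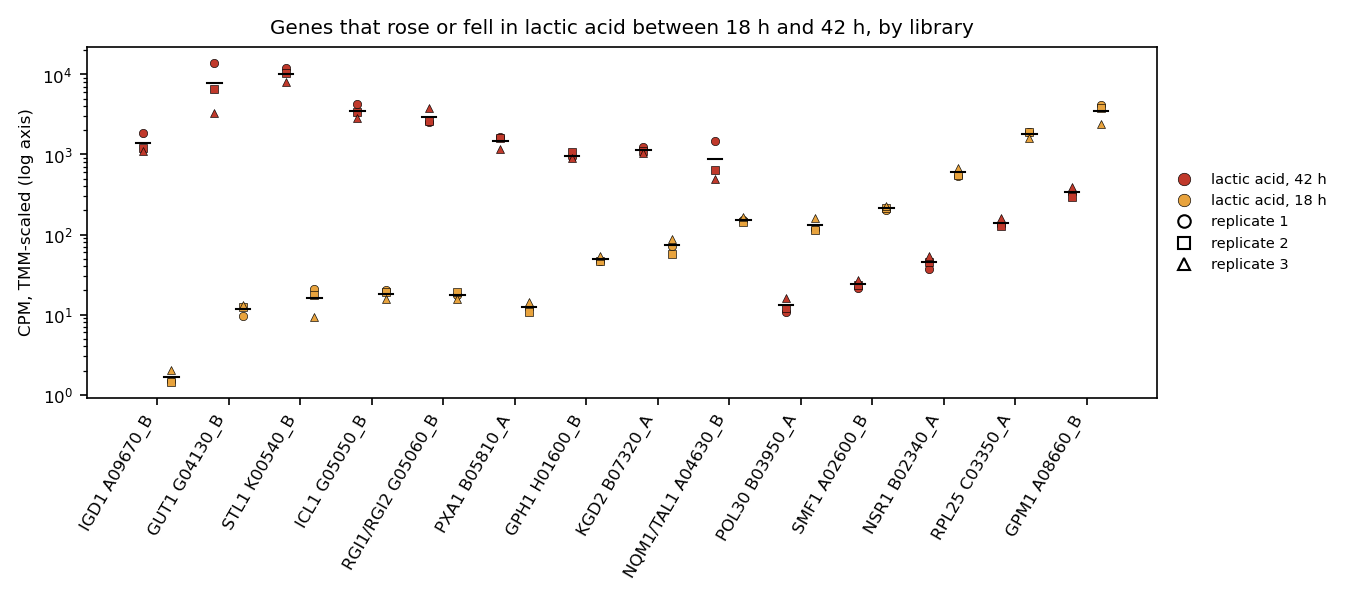
CPM (TMM-scaled, log axis) of 14 genes in each of the 3 lactic acid libraries at 42 h (red) and the 3 at 18 h (orange), with marker shapes for replicates and a line at each group mean. For all 14 genes the groups are apart, from IGD1 with at least 1112 CPM at 42 h and at most 2.02 CPM at 18 h to GPM1, which is lower at 42 h, and for GUT1 and NQM1/TAL1 replicate 1 stands highest at 42 h.

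A further pair among the 12 largest increases was annotated as related to vesicle-type transporters of the major facilitator superfamily. M05170_B had 4054, 2936 and 1648 CPM at 42 h, against 4.97, 6.11 and 6.44 CPM at 18 h (8.95 log2), and J05790_A had 2713, 1984 and 1146 CPM at 42 h, against 3.91, 5.01 and 4.04 CPM at 18 h (8.81 log2). In control cultures the same genes changed by 5.21 and 4.21, and the difference of 4.61 for J05790_A was the largest positive one among genes of at least 10 CPM (adjusted p = 1.14e-05). The other 5 of the 12 have no name or description in the annotation at hand.

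Among the 12 lowest changes were NSR1 (nucleolin, which acts in the processing of rRNA), RPL25 and RPS22A (ribosomal proteins), both homologs of YBR242W/YGL101W, and a FIT2-type gene of the cell wall. NSR1 (B02340_A) had 36.6, 45.3 and 53.4 CPM at 42 h, against 541, 562 and 685 CPM at 18 h (-3.72 ± 0.17 log2, adjusted p = 2.20e-09). The YBR242W/YGL101W genes had 5.60, 4.22 and 6.07 CPM at 42 h, against 70.6, 79.2 and 85.1 CPM at 18 h for A07420_B, and fell by 3.88 and 3.88 on the log2 scale. The lowest change of all, -4.35 log2, was that of B05000_N, annotated with a zinc cluster DNA-binding domain, at 0.517, 0.937 and 1.19 CPM at 42 h, against 13.3, 17.9 and 22.5 CPM at 18 h.

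The genes of the glyoxylate cycle and gluconeogenesis rose together: 6 of 6 members with a name were upregulated, with a median log2 fold change of 2.61 (all genes: -0.003). These lists hold only genes with a name in the annotation at hand, which covers some of the genes, or with a homeolog named there. Where members are counted whose change differed from control, the shares over all genes were 28.9% more positive and 24.9% more negative. Those counts were not recomputed under another scaling. Library totals alone moved the median difference from control over all genes from 0.032 to -0.51. ICL1, isocitrate lyase, which opens the glyoxylate cycle, had 4220.4, 3443 and 2848 CPM at 42 h, against 20.4, 19.1 and 15.5 CPM at 18 h for G05050_B (7.58 ± 0.22 log2, adjusted p = 2.00e-10), and its homeolog B01580_A rose by 7.19. The peroxisomal malate dehydrogenase MDH3 rose by 2.85 (E02600_A) and 2.37 (A01280_B), and the cytosolic MDH2 by 1.95 (C03370_A) and 1.55 (A02540_B). ICL1 rose by 5.36 in control cultures, 2.22 less than in lactic acid for G05050_B (adjusted p = 5.34e-05), whereas the changes of MDH3 in lactic acid and control, 2.85 and 3.00 for E02600_A, were not shown to differ (adjusted p = 0.407, past the threshold only under scaling by library totals).

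In the TCA cycle 12 of 16 members were higher and 3 lower (median 2.23). KGD2, a subunit of the 2-oxoglutarate dehydrogenase complex, had 1233, 1110.4 and 1054 CPM at 42 h, against 72.9, 57.9 and 88.6 CPM at 18 h (3.95 ± 0.17 log2 for B07320_A, adjusted p = 1.73e-09), with no overlap. Succinate dehydrogenase (SDH1) rose by 3.47 (A08700_B) and 3.52 (B08720_A), and without LA42 replicate 1 the change of B08720_A was 2.79. Isocitrate dehydrogenase (IDH1) rose by 2.13 (B03070_A) and 2.33 (G03560_B). Of the nuclear genes of the respiratory chain 13 of 14 were higher and none lower (median 2.73, control 1.85). The external NADH dehydrogenase NDE2/NDE1 (A01390_B) had 2911, 1601 and 915 CPM at 42 h, against 68.98, 80.6 and 95.7 CPM at 18 h (4.47 log2), and the internal enzyme NDI1 (G03030_B) rose by 3.74. ATP synthase genes were split: 7 of 12 were higher and 4 lower (median 0.375, control 1.13), and for 11 of 12 the change in lactic acid was more negative than in control. INH1/STF1, an inhibitor of the ATP synthase, rose by 1.94 (B01120_A), and ATP19, a small subunit, fell by 1.29 (C04260_A). The ACS1 gene A00450_A (acetyl-CoA synthetase) had 1719, 696 and 584 CPM at 42 h, against 29.1, 32.96 and 42.1 CPM at 18 h, and its log2 fold change of 4.85 ± 0.40 was 4.19 without LA42 replicate 1. In its list of ethanol and acetate genes 2 of 8 were higher and 5 lower. ALD4, a mitochondrial aldehyde dehydrogenase, was the other higher gene (A00360_A, 1.79 log2), and ALD5 fell in both copies (G05190_B, -1.08 log2, and B01440_A, -1.06 log2).

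Of 18 genes for regulators of the carbon source switch 17 were higher and 1, HAP5, lower (median 1.71, control 0.575). GIS1/RPH1, transcription factors of the postdiauxic and stationary phase, had 255, 138 and 119.6 CPM at 42 h, against 13.1, 11.8 and 11.2 CPM at 18 h for A01640_B (3.83 ± 0.25 log2, adjusted p = 3.60e-08). CAT8, the activator of gluconeogenic genes, rose by 3.11 (B03510_A) and 3.02 (G03120_B). MTH1/STD1, which repress glucose-transporter genes when glucose is absent, rose by 3.15 (B07400_A) and 3.03 (H02580_B), and the repressor gene MIG1 by 2.55 (B02140_A) and 2.03 (G04490_B). For 13 of the 18 the change was more positive in lactic acid than in control cultures. The 6 named sugar transporters did not move as a group: 2 were higher, 2 lower and 2 not called (median -0.10). MAL11, a maltose and general alpha-glucoside transporter, was upregulated as H04710_B with 88.6, 89.9 and 86.4 CPM at 42 h, against 19.3, 20.05 and 22.7 CPM at 18 h. HXT7/HXT4 (A01900_B), homologs of high-affinity hexose transporters, had 413, 440.4 and 459 CPM at 42 h, against 809, 694 and 812 CPM at 18 h (-0.82 log2). The HXT5/HXT3 gene A01890_B changed by -0.53 in lactic acid (adjusted p = 0.0308, not passed when LA42 replicate 2 or 3 or LA18 replicate 2 or 3 was left out, with -0.36 to -0.54, nor with RLE size factors, at -0.46) and by 1.82 in control, a difference of -2.35 (adjusted p = 1.02e-04).

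All 8 named genes of storage carbohydrates were upregulated (median 3.41, control 1.98). Besides IGD1, glycogen phosphorylase GPH1 had 925, 1063 and 913 CPM at 42 h, against 46.6, 47.3 and 53.5 CPM at 18 h (4.30 ± 0.15 log2 for H01600_B, adjusted p = 5.30e-10). TSL1/TPS3, regulatory subunits of trehalose synthesis, had 1958, 1989 and 2090.5 CPM at 42 h, against 157, 143 and 143 CPM at 18 h (3.77 log2 for B03200_A). TPS1, the catalytic subunit, rose less, by 1.75 (B04500_B) and 1.11 (G02070_A). For 7 of the 8 genes the change was more positive in lactic acid than in control.

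The list of beta oxidation and the peroxisome held 25 genes, of which 23 were higher and 2 lower (median 1.38, control 0.943). The ABC transporter PXA1, which brings long-chain fatty acids into the peroxisome, had 1660.1, 1587 and 1157 CPM at 42 h, against 11.9, 10.6 and 14.4 CPM at 18 h (6.89 ± 0.25 log2 for B05810_A, adjusted p = 7.35e-10). POX1, the acyl-CoA oxidase of the first step, had 475, 311 and 192 CPM at 42 h, against 4.31, 5.15 and 4.27 CPM at 18 h (6.15 log2 for A03460_B). SPS19, the 2,4-dienoyl-CoA reductase, was close to the detection limit at 18 h: B00740_A had 56.05, 46.00 and 41.9 CPM at 42 h, against 0.464, 0.0687 and 0.155 CPM at 18 h, and G05880_B had 62.2, 65.3 and 80.00 CPM at 42 h, against 0.597, 0.343 and 0.388 CPM at 18 h. The fitted change of B00740_A, 7.62, was 8.63 without LA18 replicate 1. PXA1 rose further in lactic acid than in control (difference 2.08, adjusted p = 2.04e-04), and the difference for POX1 did not pass the test (-0.22, adjusted p = 0.671).

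Besides GUT1 and STL1, FPS1, the aquaglyceroporin through which glycerol leaves the cell, had 663, 281 and 167 CPM at 42 h, against 36.7, 44.4 and 37.96 CPM at 18 h (B02520_A, 3.22 ± 0.39 log2, 2.48 without LA42 replicate 1), and its homeolog G04110_B rose by 2.70 (1.84 without that library). Replicate 1 stood highest at 42 h for these genes as for GUT1, whose locus numbers lie 2 steps from those of FPS1 in both copies (B02500_A and B02520_A, G04130_B and G04110_B). Of the 13 named genes of glycerol and osmostress 12 were higher, with a median of 1.76 (control 0.727), among them ASK10/RGC1, which regulate Fps1, at 1.94 (J04160_A) and 1.76 (A07870_B). The exception was GPP2/GPP1 (B01620_N), glycerol-3-phosphate phosphatase, the last step of glycerol synthesis, which fell by 1.28. For 9 of the 13 the change was more positive in lactic acid than in control cultures.

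The pentose phosphate pathway moved as a whole in lactic acid: 8 of 8 named genes were upregulated, with a median of 2.12, and for all 8 the change was more positive than in control cultures, where 2 were higher, 2 lower and the median was 0.232. ZWF1, glucose-6-phosphate dehydrogenase, had 586, 390.2 and 339 CPM at 42 h, against 107, 98.05 and 96.6 CPM at 18 h (2.13 ± 0.19 log2 for G06360_B, adjusted p = 4.99e-07). In control cultures this gene had means of 341 CPM at 42 h and 266 CPM at 18 h. NQM1/TAL1, transaldolase, had 1485, 631 and 498 CPM at 42 h, against 150.5, 143 and 166 CPM at 18 h (2.51 ± 0.33 log2 for A04630_B, 1.87 without LA42 replicate 1), and control means of 900.0 CPM at 42 h and 731 CPM at 18 h. Here the low values were those of lactic acid at 18 h. SOL4/SOL3, 6-phosphogluconolactonases, rose by 2.37 (A08380_B) and 2.15 (J04660_A), and TKL2/TKL1, transketolase, by 1.76 (G02250_A) and 1.65 (B04360_A).

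In glycolysis, where 8 genes had a name, 5 were higher and 2 lower (3 higher without LA18 replicate 1, and 3 without LA42 replicate 3), and the named enzymes went different ways. PGI1, glucose-6-phosphate isomerase at the branch to the pentose phosphate pathway, had 822, 647 and 510.0 CPM at 42 h, against 108, 88.4 and 119.5 CPM at 18 h for E04320_A (2.65 ± 0.18 log2, adjusted p = 4.31e-08), and rose by 2.55 as A04580_B. In control cultures E04320_A had means of 529 CPM at 42 h and 483 CPM at 18 h, and its change was 2.52 log2 units smaller than in lactic acid (adjusted p = 2.56e-05). GPM1, phosphoglycerate mutase, fell to 332, 298 and 393 CPM at 42 h, against 4169, 3855 and 2438 CPM at 18 h (A08660_B, -3.35 ± 0.25 log2), and by 1.97 as B08680_A. In control cultures A08660_B changed by -3.05 (difference -0.30, adjusted p = 0.472, which passed the test only under scaling by library totals). Pyruvate kinase (CDC19/PYK2) rose by 0.47 (A00760_A) and 0.47 (F00120_A).

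Genes of the translation machinery fell. Of 79 named genes for cytosolic ribosomal proteins 78 were lower and none higher, with a median log2 fold change of -3.24 (control -1.58). Together they took 0.80%, 1.03% and 1.21% of the counts at 42 h, against 10.3%, 10.2% and 10.5% at 18 h, a difference of -9.32 percentage points of the means (exact permutation test, p = 0.1, two-sided, the smallest value 3 against 3 libraries allow). RPL25, a protein of the large subunit, had 131, 127 and 163 CPM at 42 h, against 1912, 1892 and 1627 CPM at 18 h for C03350_A (-3.69 ± 0.17 log2, adjusted p = 2.32e-09), and its homeolog A02520_B fell by 3.65. RPS22A (A08070_B) fell by 3.67 and RPL15A/RPL15B (A01020_B) by 3.66. For 71 of the 79 genes the change was more negative in lactic acid than in control cultures, and for 2 more positive. One ribosomal protein gene outside the list, the RPS22B gene K01640_B, had 14.7, 15.8 and 17.02 CPM at 42 h, against 48.1, 55.7 and 53.8 CPM at 18 h, and 73.5, 79.4 and 83.4 CPM at 42 h, against 38.1 and 34.3 CPM at 18 h, in control cultures.

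Ribosome biogenesis followed: 105 of 118 tested genes were lower and 8 higher (median -1.53, control -1.08). Beside NSR1, REI1, a factor of late 60S maturation, had 8.45, 9.18 and 12.8 CPM at 42 h, against 80.7, 80.9 and 107 CPM at 18 h (-3.15 log2 for A07000_B), and UTP4, of the small-subunit processome, fell by 3.07 (A06860_B). NOP6 (G05650_B), which acts in assembly of the small subunit, fell by 3.12 in lactic acid and changed by -0.76 in control (difference -2.36, adjusted p = 7.55e-06). Of 60 genes for mitochondrial ribosomal proteins 54 were lower and 2 higher (median -1.43, control -0.628), with MRPS28 at 16.6, 21.1 and 24.98 CPM at 42 h, against 138, 131 and 173 CPM at 18 h (-2.82 log2 for C07440_A). Of 19 translation factors 14 were lower and 1 higher (median -1.28, control -1.16), and all 19 were lower in control. With names also taken from the study's tables of changed genes, 18 of 31 were lower and 6 higher (median -0.42, control -1.16). SUP45, the release factor eRF1, had 29.3, 36.4 and 45.4 CPM at 42 h, against 324, 303 and 376 CPM at 18 h (-3.18 log2 for A05700_B), and TIF11, eIF1A, fell by 2.42 (G03440_B) and 2.35 (B03190_A). Of 20 cytosolic tRNA synthetase genes 19 were lower and none higher (median -1.46, control -1.99), led by DED81 (asparagine) at -2.65 (B09760_A) and -2.11 (A09810_B). In the tRNA synthetases the change was less negative in lactic acid than in control for 11 genes and more negative for 3, and in ribosome biogenesis for 10 and 47. Among all genes 28.9% were more positive and 24.9% more negative, a split that depends on the scaling. RNA polymerases I and III were split, with 10 of 26 genes higher and 13 lower. RPC40, shared by both enzymes, fell by 3.00 (A07970_B) and 1.95 (J04260_A).

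**Figure D2:**
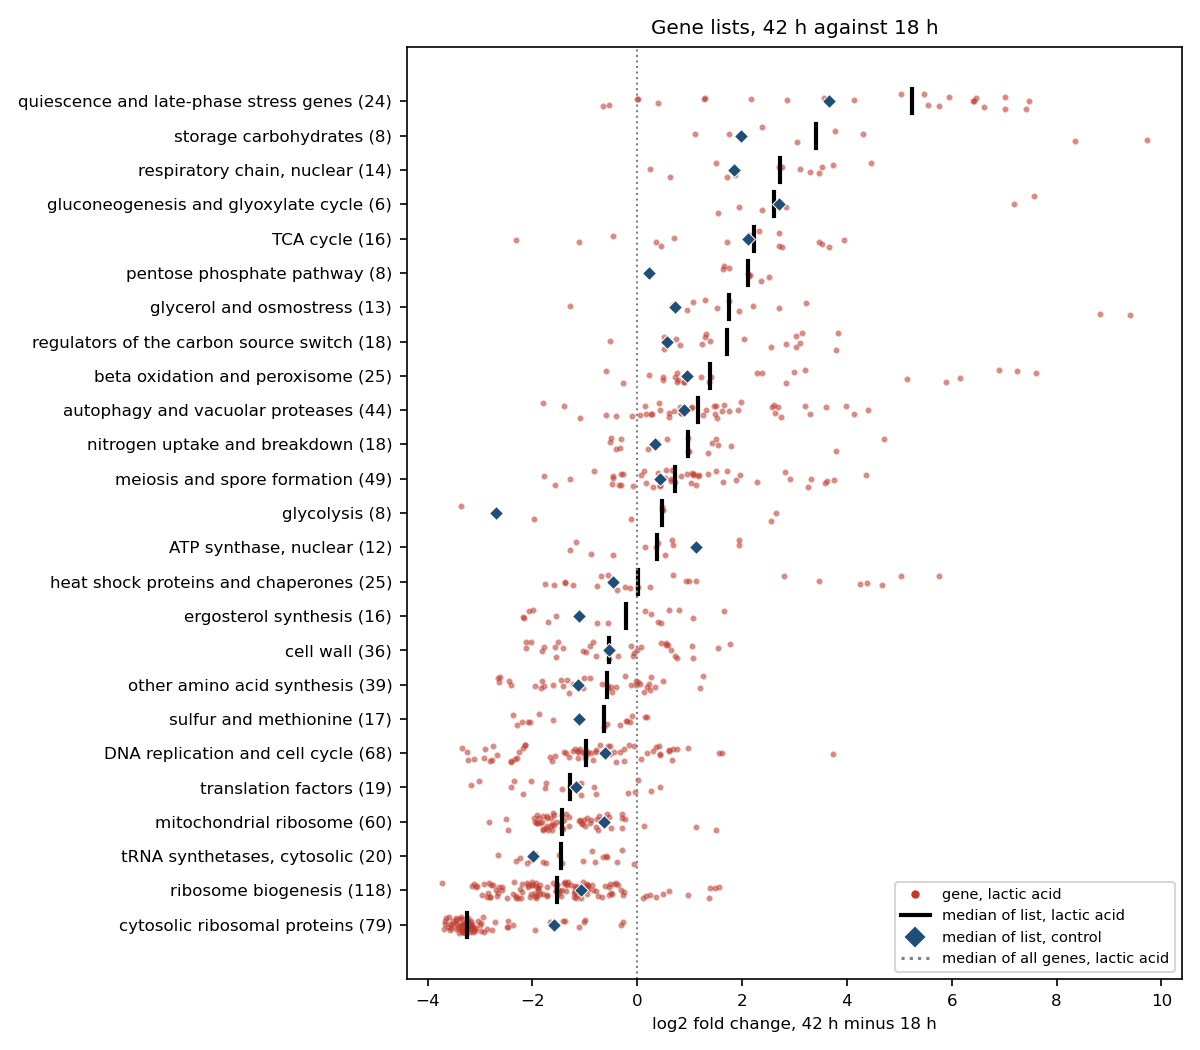
Log2 fold change between 42 h and 18 h of every tested member of 25 gene lists in lactic acid (red points), with the list medians in lactic acid (black lines) and in control cultures (blue diamonds), ordered by the median in lactic acid. The numbers in brackets count the members, the dotted line is the median of all 9683 genes, and the lists run from quiescence genes at 5.24 to cytosolic ribosomal proteins at -3.24.

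Genes of DNA replication and the cell cycle were mostly lower: 48 of 68 fell and 13 rose (median -0.982). POL30, the replication clamp PCNA, had 10.8, 12.2 and 16.02 CPM at 42 h, against 118, 114 and 160.2 CPM at 18 h (-3.33 ± 0.17 log2 for B03950_A, adjusted p = 4.98e-09), and the G1 cyclin gene PCL1 had 10.7, 10.6 and 11.8 CPM at 42 h, against 108, 92.7 and 110.1 CPM at 18 h (-3.23 log2 for A02850_B). The S-phase cyclin genes CLB6/CLB5 fell by 2.91 (B08320_A) and 2.75 (H01630_B), and CDC6, which loads the replicative helicase, by 2.93 (J04310_A) and 2.34 (A08020_B). The linker histone HHO1 went the other way in both copies, with 165, 185 and 217 CPM at 42 h, against 12.3, 11.1 and 19.2 CPM at 18 h for H04500_B (3.74 ± 0.21 log2), and 1.63 for B05490_A. The histone variant HTZ1 fell by 0.91 (B02020_A), and its other copy changed by -0.57 (G04600_B), a sign that turned (0.008) when a trend of the counts with gene length was removed.

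Meiosis and spore formation had 49 tested genes, of which 30 were higher and 5 lower (median 0.718, control 0.432), most of them at low levels. SPO11, which makes the meiotic DNA breaks, had 52.9, 36.5 and 23.8 CPM at 42 h, against 1.79, 1.37 and 2.41 CPM at 18 h (4.36 log2 for B09510_A). HOP1, of the chromosome axis, had 46.2, 39.8 and 36.8 CPM at 42 h, against 3.71, 3.78 and 2.41 CPM at 18 h (3.62 log2 for B01360_A). HOP2 (G04500_B), a factor of meiotic chromosome pairing, had 19.7, 7.68 and 4.88 CPM at 42 h, against 0.929, 0.755 and 0.699 CPM at 18 h, with 2.95 in place of 3.75 log2 when LA42 replicate 1 was left out. SSP1, needed for the membrane of the spore in S. cerevisiae, differed most from control: D02790_B had 181, 143 and 93.9 CPM at 42 h, against 5.17, 4.33 and 4.89 CPM at 18 h, while its control means were 9.63 CPM at 42 h and 5.82 CPM at 18 h (difference 4.14 log2, adjusted p = 8.85e-06). Its homeolog F01540_A changed by 4.48 in lactic acid and 0.54 in control.

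Genes of quiescence and late-phase stress had the highest list median, 5.24 (control 3.65), with 20 of 24 higher and 2 lower, of which 1, HXT5/HXT3 A01890_B, was not called without LA42 replicate 2 or 3 or LA18 replicate 2 or 3. RGI1/RGI2, induced during respiratory growth, had 2562, 2620.4 and 3766 CPM at 42 h, against 17.6, 19.1 and 15.8 CPM at 18 h for G05060_B (7.41 ± 0.22 log2, adjusted p = 2.00e-10), and B01570_A rose by 7.48. HBT1 (G05810_B), a protein of polarized cell shape, had 2482, 733 and 798 CPM at 42 h, against 10.1, 9.82 and 10.9 CPM at 18 h (7.02 log2, 6.20 without LA42 replicate 1). MBR1/ISF1 (A04390_B), of mitochondrial function, had 355, 166 and 149.9 CPM at 42 h, against 1.99, 1.65 and 1.47 CPM at 18 h (7.02 log2). OM45, of the mitochondrial outer membrane, rose by 6.45 (B03630_A) and 6.43 (G02990_B), and PNC1, nicotinamidase, by 5.94 (G04430_B) and 5.46 (B02200_A). ALD3 did not follow: A02120_B had 13.04 CPM on average at 42 h, against 20.5 CPM at 18 h (-0.65 log2).

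The chaperone list had a median of 0.019, and of its 25 members 9 were higher and 10 lower. This median moved between -0.519 without LA42 replicate 3 and 0.425 with a trend with gene length removed. With names also taken from the study's tables of changed genes, which were chosen on these libraries, 21 of 40 were higher and 11 lower (median 1.05). The higher ones included stress-inducible chaperones. SSA3/SSA4, inducible Hsp70, had 1078, 1111 and 2317 CPM at 42 h, against 27.1, 26.6 and 30.1 CPM at 18 h for B07710_A (5.75 ± 0.31 log2, adjusted p = 6.80e-09), and H02250_B had 688, 774 and 2052 CPM at 42 h, against 35.9, 37.1 and 35.01 CPM at 18 h. BTN2/CUR1, which sort aggregated proteins, had 125, 127 and 358 CPM at 42 h, against 8.42, 8.03 and 7.30 CPM at 18 h for A07690_B. In these 3 genes LA42 replicate 3 was far above the other replicates at 42 h, and without it the log2 fold changes were 5.28, 4.33 and 3.97. APJ1, an Hsp40, rose by 4.39 (G02980_B) and 4.25 (B03640_A), and HSC82/HSP82, Hsp90, by 2.80 (A03620_N). The lower ones included the chaperonin subunit CCT4, at -1.37 (H04630_B) and -1.24 (B05360_A), and MGE1, of the mitochondrial import motor, at -1.76 (B05730_A) and -1.38 (H04260_B).

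Oxidative stress genes were likewise split, with 12 of 23 higher and 7 lower. CTT1, cytosolic catalase, had 1655, 895 and 471 CPM at 42 h, against 21.7, 19.2 and 23.8 CPM at 18 h (5.54 ± 0.41 log2 for B04860_N), the peroxisomal catalase CTA1 rose by 2.29 (B06420_A), and MCR1, a mitochondrial cytochrome b5 reductase, by 3.31 (B08700_A) and 2.33 (A08680_B). PRX1 (B07620_A), the mitochondrial peroxiredoxin, fell to 52.6, 65.3 and 68.95 CPM at 42 h, against 140.3, 156 and 193 CPM at 18 h, and rose in control cultures to 173, 186 and 177 CPM at 42 h, against 86.7 and 71.3 CPM at 18 h. Of 20 genes of iron and copper 12 were higher and 6 lower, but with names also taken from the study's tables of changed genes 19 of 39 were higher and 16 lower. ISU2/ISU1, the scaffold of iron-sulfur cluster assembly, had 640.2, 737 and 884 CPM at 42 h, against 82.9, 63.8 and 105 CPM at 18 h (3.17 log2 for H04320_B), and SMF1, a manganese transporter, had 21.6, 23.2 and 26.96 CPM at 42 h, against 200.4, 214 and 228 CPM at 18 h (-3.16 log2 for A02600_B).

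Amino acid and purine synthesis genes were lower more often than higher, and ergosterol and lipid genes went both ways, beside 41.9% lower and 41.4% higher among all genes. Of 39 genes of amino acid synthesis outside the sulfur branch 24 were lower and 5 higher (3 without LA18 replicate 3, and 3 without LA42 replicate 1), with a median of -0.568 (control -1.14). ARO3, the entry to aromatic amino acids, had 75.2, 93.2 and 66.5 CPM at 42 h, against 546, 515 and 427 CPM at 18 h (-2.66 log2 for E04640_A), and LYS20/LYS21, homocitrate synthase, had 171, 195 and 189.6 CPM at 42 h, against 1361, 1389.7 and 708 CPM at 18 h (-2.64 log2 for G05520_B). Of 17 sulfur and methionine genes 11 were lower and none higher, but with names also taken from the study's tables of changed genes 17 of 37 were lower and 9 higher, the MET13 genes among them. The lower ones included MET16 at -2.37 (E01050_A) and CYS4, cystathionine beta-synthase, at -2.20 (G04370_B) and -2.08 (B02260_A). Purine genes were lower in 8 of 15 and higher in 5 (3 without LA18 replicate 1, LA18 replicate 2 or LA42 replicate 1), and ADE12 fell by 1.79 (B00480_A) and 1.27 (G06140_B). Of 16 ergosterol genes 8 were lower and 6 higher (median -0.208, control -1.12). ERG1, squalene epoxidase, had 78.04, 82.6 and 92.6 CPM at 42 h, against 408, 441 and 299 CPM at 18 h (-2.18 log2 for E03850_A), and for 10 of the 16 the change was more positive in lactic acid than in control. Fatty acid and phospholipid genes went both ways, 10 of 24 higher and 8 lower. The highest were PAH1, the phosphatidate phosphatase that leads to storage fat, with 279, 205 and 198 CPM at 42 h, against 10.3, 11.7 and 8.54 CPM at 18 h (4.47 ± 0.17 log2 for A02190_B, difference from control 2.87), and GPT2, glycerol-3-phosphate acyltransferase, at 3.52 (H02540_B) and 3.01 (B07440_A).

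Autophagy and nitrogen genes were mostly higher, and proteasome genes mostly lower. Of 44 genes of autophagy and vacuolar proteases 34 were higher and 4 lower (median 1.15, control 0.897). The vacuolar protease gene PRB1/YSP3 had 3730.0, 3893 and 3914 CPM at 42 h, against 256, 262 and 213 CPM at 18 h (3.98 ± 0.14 log2 for B01730_A, adjusted p = 7.10e-10), AMS1, vacuolar alpha-mannosidase, rose by 3.60 (B02760_A), and ATG19, a receptor of selective autophagy, by 4.41 (C04180_A) and 4.13 (A05690_B). Of 18 genes of nitrogen uptake and breakdown 13 were higher and 3 lower (5 without LA42 replicate 1), led by AGP2, a plasma membrane regulator and transporter, at 4.72 (G01970_A) and 3.79 (B04600_B). Of 21 proteasome genes 13 were lower and 3 higher (median -0.588). Its largest change was that of RPN7, which rose by 2.38 as B04850_B, whose locus number is next to that of CTT1 (B04860_N), and by 1.56 as G01720_A. The study counted reads with the default settings of htseq-count, and whether the library kit kept strand was not given in the sources used here, so signal shared between neighbouring or overlapping genes was not tested. Of 36 cell wall genes 20 were lower and 11 higher, with the sensor WSC2/WSC3 at -2.12 (C03760_A) and -2.04 (A02910_B). With names also taken from the study's tables of changed genes, 29 of 67 cell wall genes were lower and 22 higher.

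Of 15 genes of weak acid and multidrug transport 7 were higher, 1 lower and 7 not called (the single lower gene was joined by 2 more without LA42 replicate 1, and was lost without LA42 replicate 2). MCH4, a monocarboxylate permease homolog, had 72.3, 47.9 and 22.9 CPM at 42 h, against 9.35, 7.42 and 6.60 CPM at 18 h (2.61 ± 0.33 log2 for C03450_A), and control means of 20.9 CPM at 42 h and 19.3 CPM at 18 h (difference 2.50, adjusted p = 0.00105). In the list of lactate and pyruvate metabolism 3 of 6 genes were higher and 2 lower, but the movers among these 6 are not lactate dehydrogenases. With names also taken from the study's tables of changed genes, 10 of 15 were higher and 4 lower (median 2.24, control 0.169). AIM17, an oxidoreductase of unknown role, had 987, 966 and 1258 CPM at 42 h, against 20.6, 20.7 and 18.5 CPM at 18 h (5.75 ± 0.16 log2 for B09520_A). LDH1, a hydrolase of lipid droplets in S. cerevisiae, fell by 2.14 (H03290_B) and 1.27 (B06700_A). The D-lactate dehydrogenase genes DLD1 and DLD2 have identical copies and are given with the duplicated genes.

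The change in lactic acid was larger in spread than that in control cultures. The log2 fold changes of 9683 genes had a standard deviation of 1.67 in lactic acid and 1.26 in control, with a Pearson correlation of 0.831 and a Spearman correlation of 0.805 across genes, which are not independent replicates. In control 1507 genes (15.6%) were upregulated and 1831 (18.9%) downregulated, and 3022 (31.2%) were higher and 3788 (39.1%) lower. Of the genes upregulated in lactic acid 1237 were upregulated in control too, and by the adjusted p alone 1786 were higher there, 68 lower and 558 not called. Of those downregulated 1339 were downregulated in control, and by the adjusted p alone 2107 were lower there, 15 higher and 233 not called. The difference of the changes itself passed the test for 2795 genes (28.9%) that were more positive in lactic acid and 2407 (24.9%) that were more negative, of which 1505 (15.5% of all) and 895 (9.24%) differed by a log2 of at least 1. This split depends on the scaling: by library totals alone 1256 genes were more positive and 4630 more negative, with a median difference of -0.51 over all genes in place of 0.032, and in control 1969 genes were upregulated and 1313 downregulated.

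**Figure D3:**
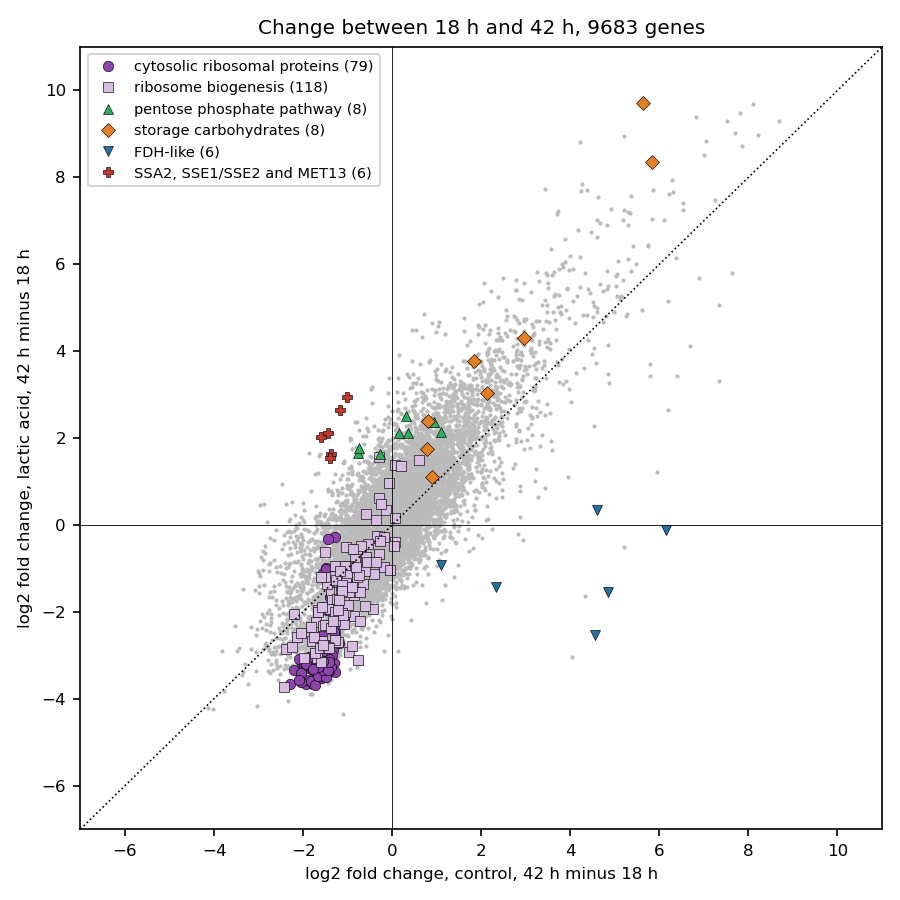
Log2 fold change between 42 h and 18 h in lactic acid (vertical axis) against that in control cultures (horizontal axis) for 9683 genes, with members of 4 gene lists and 2 gene groups marked and a dotted line of equality. Most ribosomal protein genes lie below the line at the lower left, pentose phosphate genes above it near 0 on the control axis, and the FDH-like genes at the lower right, with control changes of 1.10 to 6.16 and lactic acid changes of -2.53 to 0.35.

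Only 25 genes were called in opposite directions in lactic acid and control: 18 were upregulated in lactic acid and downregulated in control, and 7 the reverse. They were singled out after their values were seen, and some of their names come from the study's tables of genes changed by lactic acid. Constitutive Hsp70 (SSA2) stood first. D04220_A had 3519.7, 2234 and 2555 CPM at 42 h, against 333, 326 and 425 CPM at 18 h, in lactic acid, and 1222, 1268 and 1331 CPM at 42 h, against 2504 and 2643 CPM at 18 h, in control (difference 3.95, adjusted p = 3.44e-06). Its homeolog L05000_B changed by 2.64 and -1.17. The lactic acid libraries at 42 h and the control libraries at 18 h were thus both high for SSA2, and lactic acid at 18 h was the lowest group. MET13, methylenetetrahydrofolate reductase, was highest in lactic acid at 42 h, with 377, 333 and 323 CPM at 42 h, against 81.2, 81.1 and 93.2 CPM at 18 h, in lactic acid and 65.98, 64.1 and 67.1 CPM at 42 h, against 183 and 216 CPM at 18 h, in control for E01670_A, and was lowest in control at 42 h. Its homeolog M04240_B changed by 2.11 and -1.45. SSE2/SSE1, the exchange factor of Hsp70, changed by 1.62 in lactic acid and -1.38 in control (E03130_A) and by 1.54 and -1.39 (D01010_B). HEM13, coproporphyrinogen oxidase, changed by 1.65 and -1.87 (C01190_A), and ADK1, adenylate kinase, by 1.16 and -1.73 (A02720_B). HEM13 varied within groups, with 209.9, 91.9 and 76.9 CPM at 42 h, against 47.8, 53.3 and 19.8 CPM at 18 h, in lactic acid. In control it had 102.4, 102.1 and 96.6 CPM at 42 h, against 507 and 227 CPM at 18 h. For ADK1 LA42 replicate 1 stood highest, at 203 CPM, against 104 and 107 CPM.

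The 6 FDH-like genes, homologs of the formate dehydrogenase FDH1, all had a change in lactic acid that was more negative than in control, with differences of -2.02 (P02220_N) to -7.07 (F04070_N). F04070_N had 6.21, 5.90 and 7.06 CPM at 42 h, against 32.7, 36.2 and 41.6 CPM at 18 h, in lactic acid, and 48.6, 45.8 and 33.8 CPM at 42 h, against 1.74 and 1.89 CPM at 18 h, in control (-2.53 and 4.54 log2, difference -7.07, adjusted p = 1.09e-07). I01900_B had 95.1, 106 and 83.7 CPM at 42 h, against 247, 249.8 and 339 CPM at 18 h, in lactic acid, and 106, 109 and 84.6 CPM at 42 h, against 2.98 and 3.90 CPM at 18 h, in control. In I01900_B the libraries of both media thus overlapped at 42 h, while at 18 h lactic acid lay above that range and control below it. N02280_N did not pass the test in lactic acid (-0.12 log2, adjusted p = 0.686), where its libraries had 111, 114 and 46.1 CPM at 42 h, against 95.04, 97.2 and 103 CPM at 18 h, and overlapped, while it rose by 6.16 in control. O01850_A was called higher in lactic acid, at 0.35 log2 (adjusted p = 0.021), but with 0.27 to 0.30 it did not pass when LA18 replicate 1 or 2 or LA42 replicate 2 was left out, nor with all 12 libraries (0.35, adjusted p = 0.0993) or under library totals (0.051, adjusted p = 0.765). H05680_N and P02220_N stayed below 6 CPM in every library. These genes are similar copies, and reads that match several of them without a mismatch were not counted, so that each value covers only the part of the gene that is unique.

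**Figure D4:**
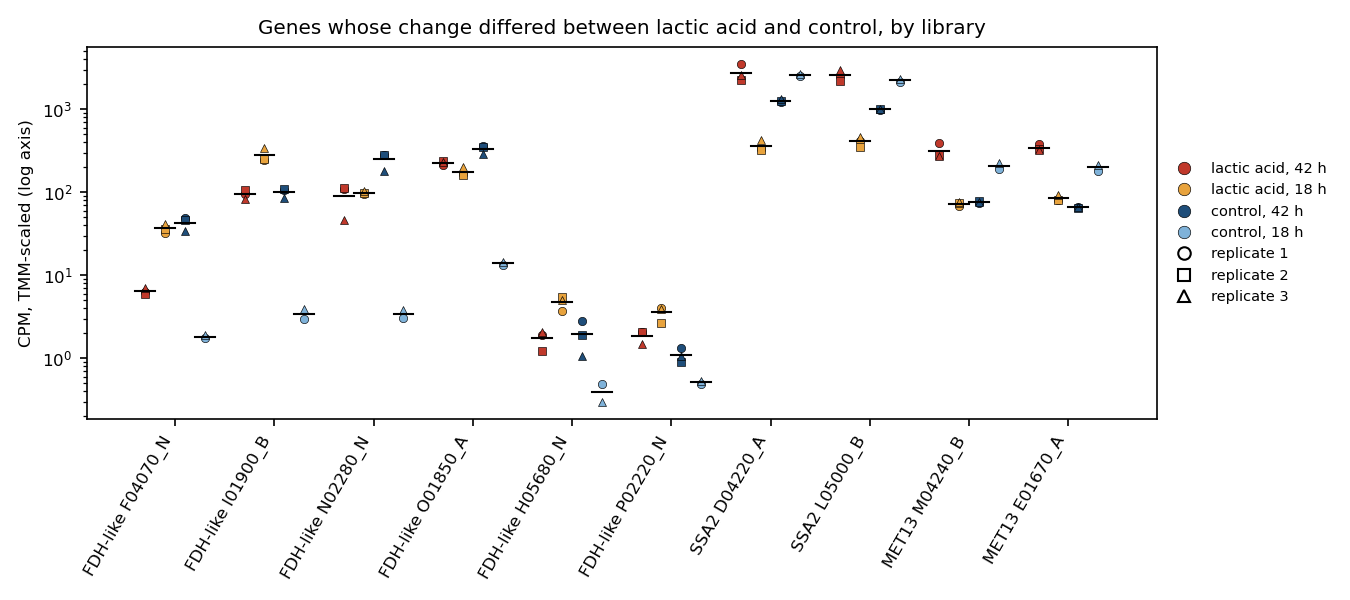
CPM (TMM-scaled, log axis) of the 6 FDH-like genes and the 4 SSA2 and MET13 genes in lactic acid at 42 h (red) and 18 h (orange) and in control cultures at 42 h (dark blue) and 18 h (light blue), with a line at each group mean. The control libraries at 18 h are the lowest group for all 6 FDH-like genes, and the lactic acid libraries at 18 h are below those at 42 h for SSA2 and MET13.

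Among genes with no name, B09945_N fell in lactic acid to 0.517, 0.468 and 0.398 CPM at 42 h, against 3.98, 4.74 and 2.79 CPM at 18 h, and rose in control to 75.2, 89.4 and 70.6 CPM at 42 h, against 6.86 and 2.96 CPM at 18 h (difference -7.07, adjusted p = 4.19e-06). G04440_N rose in lactic acid to 149.5, 192 and 191 CPM at 42 h, against 0.663, 0.824 and 1.01 CPM at 18 h, 4.29 log2 units more than in control. D07410 had 1572, 478 and 656 CPM at 42 h, against 3341, 2862 and 2179.5 CPM at 18 h, with no overlap. It did not pass the test in lactic acid (-1.63 ± 0.98, adjusted p = 0.141, -2.32 without LA42 replicate 1), but passed with the 6 lactic acid libraries alone (-1.64, adjusted p = 0.00695), under library totals (-1.98, adjusted p = 0.0457) and without control replicate 1 at 42 h (-1.63, adjusted p = 0.00549), whereas its control means were 2661 CPM at 42 h and 131 CPM at 18 h.

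Of the other families the study discusses, FFZ2, fructose facilitators, fell in lactic acid as F06230_N, with 66.7, 83.1 and 98.9 CPM at 42 h, against 601, 624 and 409.5 CPM at 18 h (-2.72 ± 0.19 log2, adjusted p = 4.80e-08), and changed by -2.83 in control. The second copy, N00190_A, had 9.40, 10.6 and 14.3 CPM at 42 h, against 14.5, 15.9 and 10.01 CPM at 18 h, and overlapped between the times (adjusted p = 0.257, but 0.0472 without LA18 replicate 3 and 0.0447 without LA42 replicate 3). The FIT2 genes, cell wall mannoproteins that retain iron in S. cerevisiae, went both ways at low levels. G00240_N had 0.862, 0.468 and 0.597 CPM at 42 h, against 11.01, 10.2 and 15.3 CPM at 18 h, P00180_N had 0.345, 0.843 and 0.497 CPM at 42 h, against 2.52, 3.23 and 2.87 CPM at 18 h, and A10020_N had 3.19, 1.87 and 2.59 CPM at 42 h, against 0.464, 0.275 and 0.543 CPM at 18 h. G00240_N and P00180_N thus fell and A10020_N rose.

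Homeologs mostly moved together. Of 2548 A:B pairs at hand 2536 had enough counts, both genes were upregulated in 449 and both downregulated in 510, and in 4 pairs 1 gene was upregulated and the other downregulated. By the adjusted p alone 834 pairs were higher in both genes, 910 lower in both and 106 higher in 1 gene and lower in the other. Across pairs the fold changes of the A and the B gene had a Pearson correlation of 0.923, and the median distance between them was 0.357 on the log2 scale. Small shifts of the balance were common all the same: the ratio of A to B moved toward A in 751 pairs (29.6%) and toward B in 782 (30.8%), of which 131 and 157 moved by at least a log2 of 1. The expression ratio was taken as the share of A in the pair's CPM per kilobase of coding length, averaged over replicates. It had a median of 0.505 at both times and a standard deviation of 0.11 at 42 h and 0.106 at 18 h. A ratio outside 0.4 to 0.6 was found for 842 pairs at 42 h and 778 at 18 h, and by library for 32.3%, 33.5% and 37.9% of the pairs at 42 h, against 30.6%, 32.1% and 32.9% at 18 h. LA42 replicate 3 had the largest share, and LA42 replicate 1 lay within the range of the 18 h libraries. Among pairs whose log2 of A over B changed with an adjusted p below 0.05 (limma), the ratio of 637 lay on the other side of 0.5 at 42 h than at 18 h.

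Among pairs in which both genes reached 10 CPM, the largest shifts toward A were those of MAK5 and BMT2, enzymes of 60S assembly and of rRNA methylation. For MAK5 the A share was 0.872, 0.864 and 0.855 at 42 h, against 0.370, 0.365 and 0.362 at 18 h, as C04200_A rose by 1.56 and A05710_B fell by 1.89 on the log2 scale (log2 of A over B 3.46 ± 0.11 higher, limma, adjusted p = 1.39e-08). For BMT2 it was 0.875, 0.870 and 0.874 at 42 h, against 0.486, 0.462 and 0.457 at 18 h. The A genes of both follow SUP45 (C04190_A) and ATG19 (C04180_A) in the order of locus numbers, and the B genes do likewise (A05690_B to A05720_B), so that in this stretch ATG19 rose and SUP45 fell in both copies while MAK5 and BMT2 parted. The largest shifts toward B included LSM2, of the mRNA decay and splicing rings, with an A share of 0.113, 0.107 and 0.0857 at 42 h, against 0.406, 0.447 and 0.451 at 18 h. IZH3, of zinc homeostasis, rose in both copies but unequally: E03730_A had 1454 CPM on average at 42 h, against 92.0 CPM at 18 h, and A05240_B had 8857 CPM at 42 h, against 108 CPM at 18 h. AIM17 behaved like this toward A, with an A share of 0.579, 0.571 and 0.559 at 42 h, against 0.269, 0.254 and 0.247 at 18 h, and moved likewise in control, to a mean of 0.602 at 42 h, against 0.333 at 18 h. For LSM2 the control means were 0.356 at 42 h and 0.432 at 18 h. The difference of the shifts from control was not tested. A difference in length of the 2 genes cancels in the change of log2 of A over B, which was tested. The A share was taken per kilobase of coding length.

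**Figure D5:**
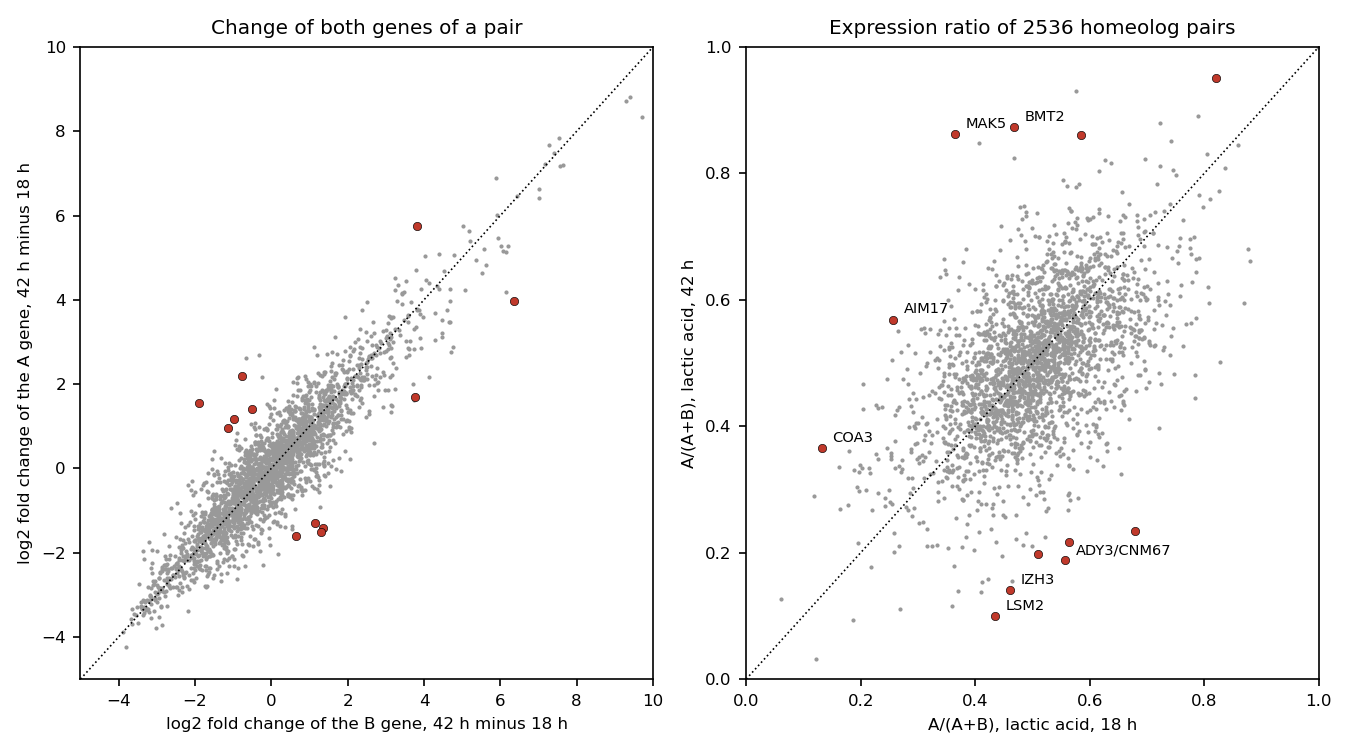
Left, log2 fold change between 42 h and 18 h in lactic acid of the A gene (vertical) against that of the B gene (horizontal) for 2536 homeolog pairs. Right, the share of A in the pair's CPM per kilobase at 42 h against that at 18 h. The 12 named pairs are in red in both panels, and the dotted line marks equality. MAK5 lies at 0.863 at 42 h and 0.365 at 18 h, and LSM2 at 0.0991 at 42 h and 0.435 at 18 h.

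Genes with identical copies were counted by the study from reads with more than 1 equally good placement, and the CPM of these genes are relative to the total of such reads, with TMM factors of their own. The TEF2/TEF1 entries, elongation factor 1-alpha, weigh heavily in that total. They had mean CPM of 136260 (G02150_A) and 135670 (B04420_A) at 42 h, against 455880 and 454790 at 18 h. Of 230 tested 67 (29.1%) were upregulated and 65 (28.3%) downregulated, and 89 (38.7%) were higher and 91 (39.6%) lower. Scaled by the totals of the full counts instead, 51 were upregulated and 73 downregulated. Entries of identical copies share their reads and are a single signal. DLD1, the mitochondrial D-lactate dehydrogenase, had 2935, 1827 and 1203 CPM at 42 h, against 873, 804 and 745 CPM at 18 h for I04780_A (1.30 ± 0.24 log2, adjusted p = 2.73e-04), with no overlap. DLD2, a second enzyme of this type, had 1747, 2103 and 1483 CPM at 42 h, against 1544, 1309 and 1767 CPM at 18 h for G05430_N, which overlapped (0.21 log2, adjusted p = 0.273). In control DLD2 fell by 0.82, and the difference of 1.03 passed the test (adjusted p = 0.00515), which that of DLD1 did not (0.82, adjusted p = 0.0668). The ribosomal protein gene RPL6B/RPL6A fell to 2328, 2702 and 2959.5 CPM at 42 h, against 34488, 28993 and 29133 CPM at 18 h for I03990_A (-3.54 ± 0.12 log2). FPR4/FPR3, nucleolar prolyl isomerases, fell by 3.44 (I04000_A). The largest increase was that of G02205_A, an unnamed entry, with 17325, 18999 and 16731 CPM at 42 h, against 527, 463 and 454 CPM at 18 h (5.20 log2, control 5.23). Other unnamed entries with close locus numbers rose alike, such as G02195_A (5.09) and G02225_A (5.06). Whether these entries share their reads was not tested.

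Levels of different genes were compared per kilobase of coding length. At 42 h the most abundant transcript was H05570_B, which has no name in the annotation at hand, at 83160 CPM per kilobase, against 5468 at 18 h. It had 19836, 23104 and 34901 CPM at 42 h, against 1628, 1550.0 and 1940.1 CPM at 18 h (3.93 ± 0.26 log2, adjusted p = 3.62e-08), and was not set apart by a single library. Next came a gene of the mitochondrial genome, ZPARMT030, and P02100_A, at 32070 CPM per kilobase at 42 h, against 4395 at 18 h. Other transcripts among the 12 most abundant at 42 h were both SPO24 genes, at 19200 (O02620_A) and 13260 (I02650_N) CPM per kilobase at 42 h, against 2882 and 4088 at 18 h, STF2/TMA10 (L02120_B), a gene of tolerance to drying and low ATP, at 11390 against 1338, and COX26 (D02375_N), a small subunit of cytochrome oxidase, at 11070 against 1311. The 20 most abundant genes of each library took 15.7%, 15.5% and 16.1% of its counts at 42 h, against 11.6%, 11.3% and 9.71% at 18 h.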

How the data were processed

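RNA was sequenced from cultures with 40 g per liter lactic acid (3 libraries at 42 h, 3 at 18 h) and without it. The authors aligned reads with Bowtie 1.1.2, allowing no mismatch, and used HTSeq 0.6.0 to count reads in genes. The deposited tables give these raw counts. The deposited normalized signal, CPM that the authors computed with edgeR 3.18.1 on TMM-scaled library sizes, served as a check only: CPM recomputed here matched for 9683 genes. Entries of pseudogenes and plasmid genes were left out, at 0.0575 to 0.344% of the counts. Reads were aligned by the authors to the genome of the strain, and genome coordinates are not used here. The members, gene lists and named genes were chosen with earlier results of these data known.

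Counts were tested in R 4.3.3 with the quasi-likelihood test of edgeR 4.0.16 in a model of 4 groups and 11 libraries (control replicate 2 at 18 h left out), two-sided, with Benjamini-Hochberg adjustment over all genes tested, with contrasts for lactic acid, control and their difference. All adjusted p-values come from this test unless limma is named. TMM factors were 0.806, 0.932 and 0.898 in lactic acid at 42 h, against 1.066, 1.087 and 1.104 at 18 h. SE were derived from the F statistic. Homeolog ratios were tested with limma 3.58.1 as log2 of A over B (pseudocount 0.5, at least 10 counts a pair in every library). Errors come from replicates, which exceed counting error at these depths. On simulated data edgeR found 94.03% of genes changed by a log2 of 1 (100% at 2 and 3) and called 0.137% of 9479 unchanged ones. In that simulation 9479 of 9679 genes were unchanged, whereas 8061 genes were called in the data. It therefore cannot speak to the choice of scaling where most genes change. Named are the 12 largest and 12 lowest changes with separated libraries and a mean of 10 CPM, up to 4 members a list, FDH-like, FFZ2, FIT2 and DLD genes, 6 pairs in each direction and the 6 largest differences from control in each direction. Further list members and unnamed abundant genes were picked as examples after their values were seen. S. cerevisiae names were at hand for 3167 genes for the lists and 4092 in all. Alternatives were limma-voom, DESeq2 1.42.0, other scalings and filters, all 12 or 6 libraries, a replicate block, removal of a length trend and leaving out each library. Columns of the authors' own fold changes were not used.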

Additional observations from a re-analysis of the deposited data

Results flagged for a closer look

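The change between 42 h and 18 h differed between lactic acid and control cultures by the test of the difference itself in 2795 genes that were more positive in lactic acid and 2407 that were more negative. Among the 195 genes considered (174 named and those called in opposite directions) 58 had a difference of at least 2 log2 units in size and are given here, 39 more positive and 19 more negative. All values below are that difference, lactic acid minus control, in log2 units (edgeR). The size limit was set after the values were known, and the reasons for the differences were not tested. Single libraries were examined only by leaving each out in turn. Whether each difference kept a size of 2 log2 units without a library is not given here.

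The differences toward lactic acid included protein folding genes. They were 3.95 and 3.81 for the SSA2 genes D04220_A and L05000_B, 3.62 for BTN2/CUR1 (A07690_B), 3.01 and 2.94 for the SSE2/SSE1 genes E03130_A and D01010_B, 2.21 for APJ1 (G02980_B) and 2.16 for SSA3/SSA4 (B07710_A). For BTN2/CUR1 and SSA3/SSA4 LA42 replicate 3 was the highest library at 42 h. Carbon and storage genes formed another group: IGD1 at 4.08 (A09670_B) and 2.52 (B09630_A), the glycerol kinase GUT1 at 2.57 (G04130_B), PGI1 at 2.52 (E04320_A) and 2.36 (A04580_B), ICL1 at 2.22 (G05050_B), the transaldolase NQM1/TAL1 at 2.21 (A04630_B), and PXA1 of the peroxisomal membrane at 2.08 (B05810_A). Without LA42 replicate 1 the fold change in lactic acid was 8.69 in place of 9.40 for GUT1, and 1.87 in place of 2.51 for NQM1/TAL1. Lipid genes were PAH1 at 2.87 (A02190_B), GPT2 at 2.22 (H02540_B) and HES1/KES1, homologs of oxysterol-binding proteins, at 2.07 (H04210_B).

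In metabolism outside these groups the difference was 3.62 and 3.55 for the MET13 genes E01670_A and M04240_B, 3.52 for HEM13 (C01190_A), 2.89 for ADK1 (A02720_B), 2.84 for FSH1, a serine hydrolase (M01330_B), 2.56 for PAN6, pantothenate synthase (N00530_A), and 2.26 for AIM17 (B09520_A). The control libraries at 18 h were far apart for HEM13, at 507 and 227 CPM. Genes of regulation and RNA were PHD1/SOK2, transcription factors of filamentous growth, at 2.54 (O00770_A) and 2.45 (I00820_B), SMP1/RLM1, transcription factors, at 2.17 (A09000_B), TRM1, a tRNA methyltransferase, at 2.52 (D02370_B), and DED1/DBP1, RNA helicases, at 2.28 (N04540_A). SSP1 stood at 4.14 (D02790_B) and 3.94 (F01540_A), PAC1, of dynein targeting, at 2.22 (B06800_A) and the permease homolog MCH4 at 2.50 (C03450_A). Genes without a name had 4.61 (J05790_A), 4.29 (G04440_N), 3.73 (M05170_B), 3.24 (L02510_N) and 3.23 (E06200_A). L02510_N and E06200_A were low in every group, with means of at most 5.67 and 7.15 CPM. The control libraries at 18 h had 2.89 and 11.4 CPM for E06200_A.

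In the direction of control the FDH-like genes had -7.07 (F04070_N), -6.39 (I01900_B), -6.28 (N02280_N), -4.24 (O01850_A), -3.78 (H05680_N) and -2.02 (P02220_N). Genes without a name had -7.07 (B09945_N), -5.97 (D07410), -5.71 (K04910), -4.73 (D01120_N) and -3.23 (B05000_N). The ribosomal protein gene RPS22B had -2.85 (K01640_B), HMRA2, a homolog of a mating-type gene, -2.58 (B00210_A), the peroxiredoxin PRX1 -2.57 (B07620_A) and NOP6 -2.36 (G05650_B). HMRA2 was low in every group, with means of at most 3.88 CPM. The HXT5/HXT3 gene A01890_B had -2.35, the fructose facilitator FFZ2 -2.16 (N00190_A), and the YBR242W/YGL101W genes -2.04 (A07420_B) and -2.08 (J03720_A). Of 1153 recomputed differences of these 58 genes under 20 alternatives 1150 stayed past the threshold with the same sign. The exceptions were K04910, with -4.72 in limma-voom (adjusted p = 0.0665) and -5.81 without control replicate 3 at 18 h (edgeR, adjusted p = 0.0553), and D07410, with -5.58 without control replicate 1 at 18 h (edgeR, adjusted p = 0.0537). Leaving out either of these control libraries leaves 1 library in that group, which is then assumed to vary like the other groups.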

How the results depend on the processing

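The counts of genes called in lactic acid, the homeolog pairs and the duplicated genes stayed within 1.5 times under every alternative run. Upregulated and downregulated genes numbered 2580 and 2176 with RLE size factors, 2576 and 2173 in DESeq2, 2373 and 2359 in limma-voom, 2390 and 2366 with the 6 lactic acid libraries alone, 1914 and 1916 when tested against a 2-fold minimum, and 2195 to 2436 and 2304 to 2517 when 1 library was left out. Scaling by library totals without TMM moved the difference from control to 628 upregulated and 2608 downregulated, 1256 higher and 4630 lower genes. Leaving out a library gave 2210 to 3118 higher and 1884 to 2748 lower genes for that difference. With nuclear genes as the denominator the fall of the ribosomal protein share was -9.56 percentage points. Of named genes, 3 changed sign: the difference from control of GDH2 (B00940_A), -0.0992 under library totals, and the fold changes of HTZ1 (G04600_B), 0.00804, and of YOR1 (A06460_B), -0.129, with the length trend removed, and the cause was not tested. Calls of the fold change were lost in 13 and gained in 7 of the other recomputed values of single genes, among them E06200_A without LA18 replicate 1 or LA42 replicate 1 (edgeR, adjusted p = 0.0736 and 0.0613), and calls of the difference in 152 and 71. Counts of list members moved by over 1.5 times in 101 recomputed values.

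The labels number the replicates 1 to 3 in each group. Same-numbered libraries of 42 h and 18 h did not deviate together (correlations of 0.038, -0.114 and 0.164), so the number was not taken as a pairing. With the number as a replicate block 2402 genes were upregulated and 2354 downregulated, 3989 higher and 4029 lower, the difference from control was called for 2693 and 2315 genes, and the ratio of 737 and 755 pairs moved toward A and B.

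With 3 libraries a group the exact test of a single share cannot go below p = 0.1. The SPS19 gene B00740_A, below 0.5 CPM at 18 h, moved with a single library. Names were at hand for some of the genes, so the lists are incomplete.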
